A study of Mus musculus with 24 samples.

Results

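CD4 T cell libraries numbered 3 and 4 were set against CD4 T cell libraries numbered 1 and 2, within a series that measured poly(A) RNA of mouse spleen T cells. The members were 12 of the 24 libraries, 6 with number 3 or 4 and 6 with number 1 or 2, and each set of 6 held 2 libraries of each of 3 genotypes. The number is the last part of a library's name in the labels, and the labels do not say what it marks: no date, batch or animal is tied to it. Knockout (KO) mice were CD4.Cre+.Pou2af1fl/fl and heterozygous (Het) mice were CD4.Cre+.Pou2af1fl/+. Wild-type (WT) mice carried the same floxed gene as the KO mice, CD4.Cre-.Pou2af1fl/fl, and are titled Pou2af1+/+ in the labels, which gives their genotype in 2 ways. The CD4 promoter that drives Cre is active in the precursors of both CD4 and CD8 T cells. All mice were 12-week-old C57BL/6, and sorted CD4+ or CD8+ cells of every group were cultured for 2 days with antibodies to CD3 and CD28, which activate T cells through their antigen receptor and a costimulatory receptor. The other 12 libraries, from CD8 T cells, have the same genotypes and numbers.

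The split was taken up because the CD4 libraries had been seen to part by number, with Bnip3, Egln3 and Ak4 as leading genes. The CD4 values are therefore a description, and no p is given for them. The CD4 difference minus the CD8 difference is built in part from the same CD4 values and is a description too, given with its standard error (SE) and as counts past the threshold of its fit. Tests are given for the CD8 libraries and for the variation of the CD4 difference between genotypes. The variation is fitted on the same CD4 libraries, as a contrast at right angles to the split. It asks only whether the difference varies between genotypes, and its p lend no support to the split itself. In all 12 combinations of genotype and number the CD4 and the CD8 library had the same sex by Xist and Ddx3y, so same-numbered CD4 and CD8 libraries may come from 1 mouse and need not be independent. The labels do not say that replicates are separate animals, so p-values measure the spread between these libraries, part of which may be technical.

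Bnip3, Egln3 and Ak4 are textbook genes of the hypoxia response. In that response prolyl hydroxylases mark the factor HIF-1 alpha for breakdown while oxygen is present. When they are inactive HIF-1 alpha persists, pairs with ARNT and binds a short core, ACGTG or GCGTG, beside genes for glycolysis, glucose uptake and lactate export. HIF-1 alpha also accumulates in T cells stimulated through the antigen receptor, which switch to glycolysis and to sterol and fatty acid synthesis as they grow.

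The promoters of the 3 leading genes, 250 bases before to 50 after the start, are shown because the core can be looked for in them, and that of Hmgcs1, an enzyme of the sterol pathway, because of the lipid genes described further on. Sequences are from RefSeq (GRCm38.p6), 5′ to 3′ on the gene's strand. Capitals mark ACGTG or GCGTG on either strand in Bnip3, Egln3 and Ak4, and TCACNCCAC, one spelling of the sterol regulatory element, on either strand in Hmgcs1. The windows are chr7:138909457-138909756 (minus strand) for Bnip3, chr12:54203825-54204124 (minus strand) for Egln3, chr4:101419039-101419338 (plus strand; the first of 4 windows listed) for Ak4 and chr13:119690101-119690400 (plus strand) for Hmgcs1.
Bnip3: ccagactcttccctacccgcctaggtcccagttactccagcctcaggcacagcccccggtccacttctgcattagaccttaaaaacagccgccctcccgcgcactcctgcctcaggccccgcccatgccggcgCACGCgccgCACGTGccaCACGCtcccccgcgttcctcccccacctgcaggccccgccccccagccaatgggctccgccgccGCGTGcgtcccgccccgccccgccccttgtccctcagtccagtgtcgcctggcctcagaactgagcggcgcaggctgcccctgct
Egln3: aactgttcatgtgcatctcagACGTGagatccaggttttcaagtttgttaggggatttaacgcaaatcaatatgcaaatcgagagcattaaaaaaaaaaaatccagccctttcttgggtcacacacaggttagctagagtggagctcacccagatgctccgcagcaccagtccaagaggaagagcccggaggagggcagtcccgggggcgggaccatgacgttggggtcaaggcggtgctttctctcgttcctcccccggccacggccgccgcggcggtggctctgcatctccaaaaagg
Ak4: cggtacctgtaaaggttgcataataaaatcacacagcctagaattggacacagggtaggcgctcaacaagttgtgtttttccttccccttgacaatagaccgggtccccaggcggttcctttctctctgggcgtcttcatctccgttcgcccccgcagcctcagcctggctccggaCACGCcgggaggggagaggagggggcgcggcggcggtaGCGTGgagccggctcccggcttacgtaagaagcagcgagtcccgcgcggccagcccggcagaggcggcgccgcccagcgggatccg
Hmgcs1: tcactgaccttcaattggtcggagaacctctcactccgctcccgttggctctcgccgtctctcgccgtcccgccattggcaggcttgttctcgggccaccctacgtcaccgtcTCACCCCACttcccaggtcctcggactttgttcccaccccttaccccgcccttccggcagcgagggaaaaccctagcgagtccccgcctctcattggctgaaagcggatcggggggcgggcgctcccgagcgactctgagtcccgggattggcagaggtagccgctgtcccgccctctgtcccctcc
The Bnip3 window held 5 matches in 4 stretches, since the 2 strands of CACGTG both match, the Ak4 window 2 and the Egln3 window 1. The hypoxia core is common: 43.8% of all 32851 listed promoters hold it, 64.4% of the 8857 first-listed promoters of genes tested in CD4 libraries, and 30 of the 39 (76.9%) of the hypoxia target and glycolysis lists that had a promoter. The sterol spelling is rare, with 1.24% of all promoters, 0.994% of the first-listed promoters of genes tested in CD4 libraries and 1 of the 13 (7.69%) of the cholesterol synthesis list. The Hmgcs1 window printed here holds a match, so it does not stand for that list. A match is a string of letters and does not show a factor there.

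Bnip3, a mitochondrial protein of mitophagy, had 50.8, 93 and 109 CPM as lowest, median and highest value in CD4 libraries 3 and 4, against 7.08, 12.2 and 16.5 CPM in CD4 libraries 1 and 2. CPM are gene counts scaled to 1 common library size with TMM factors, and 3 values given for a set of 6 libraries are always its lowest, median and highest. The sets did not overlap, and the Het libraries were the lowest of the high set and the highest of the low set. Egln3, the prolyl hydroxylase that HIF itself induces, had 55, 79.4 and 222 CPM in CD4 libraries 3 and 4, against 5.31, 16.6 and 23.2 CPM in CD4 libraries 1 and 2. WT replicate 3 held the highest value, and the sets were again separate. Ak4, a mitochondrial adenylate kinase, had 77.8, 113 and 123 CPM in CD4 libraries 3 and 4, against 17.9, 30.9 and 39.5 CPM in CD4 libraries 1 and 2, with no overlap. The log2 differences, libraries 3 and 4 minus 1 and 2 with genotype in the fit, were 2.74 (SE 0.24) for Bnip3, 2.64 (SE 0.423) for Egln3 and 1.80 (SE 0.186) for Ak4.

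In CD8 libraries Bnip3 had 21, 53.5 and 96.4 CPM in numbers 3 and 4, against 2.3, 6.89 and 9.57 CPM in numbers 1 and 2. Egln3 had 26.8, 47.4 and 79.5 CPM in CD8 libraries 3 and 4, against 2.31, 3.83 and 6.5 CPM in CD8 libraries 1 and 2. Ak4 had 31.5, 60.4 and 86.7 CPM in CD8 libraries 3 and 4, against 2.3, 9.25 and 11.6 CPM in CD8 libraries 1 and 2. None of the 3 genes overlapped between the CD8 sets, and within numbers 3 and 4 WT replicate 3 and Het replicate 4 lay at the low end for each. All 3 passed edgeR's quasi-likelihood test in the CD8 libraries: the log2 difference was 3.06 for Bnip3 (adjusted p = 0.000687), 3.62 for Egln3 (adjusted p = 2.33e-05) and 2.81 for Ak4 (adjusted p = 0.000255). The CD4 difference minus the CD8 difference was -0.31 for Bnip3 (SE 0.517), -0.97 for Egln3 (SE 0.595) and -1.01 for Ak4 (SE 0.39).

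**Figure D1:**
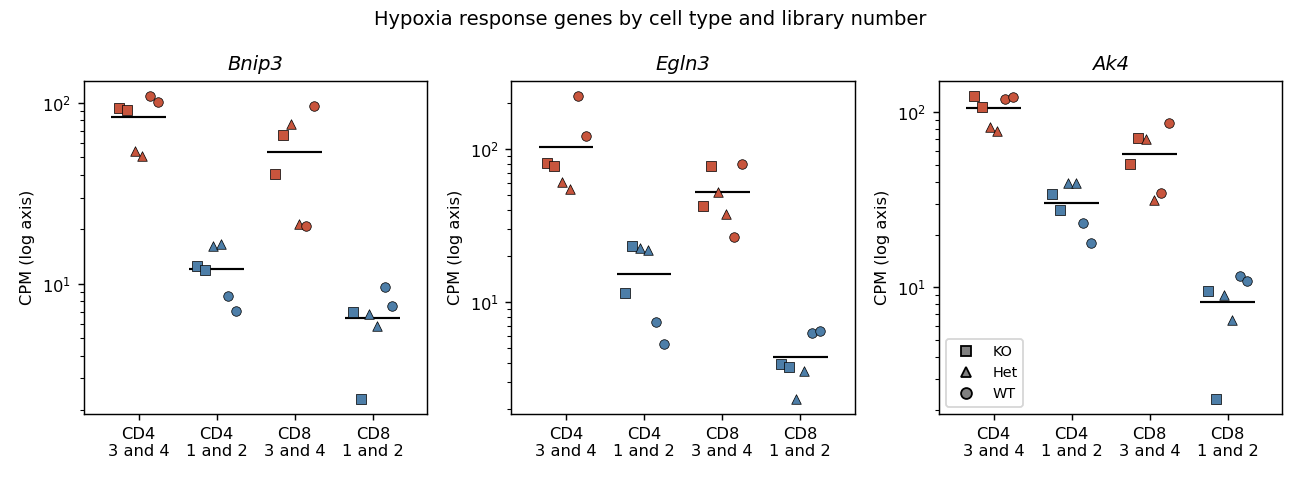
CPM of Bnip3, Egln3 and Ak4 (log axis) in each CD4 and CD8 library, by number, with genotype as the symbol and a bar for the mean of 6 libraries. In each panel every library numbered 3 or 4 lies above every library numbered 1 or 2 of the same cell type, with CD4 Bnip3 at 50.8 CPM and more in numbers 3 and 4 and at 16.5 CPM and less in numbers 1 and 2.

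Each library held 11.9 to 21.8 megacounts over its genes, and a count of 3, the floor, lay under 0.26 CPM in every library. The genotype labels held in the CD4 libraries: Pou2af1 had 3.79 CPM at most in KO libraries, 15.7 to 24.6 CPM in Het libraries and 28.7 to 49.5 CPM in WT libraries. T cell markers (12 genes) summed to 2930 CPM or more in every CD4 library. The first principal component of the CD4 libraries, 46.9% of the variance, had libraries 3 and 4 at 6.4 to 39.7 and libraries 1 and 2 at -27.8 to -15.7, with Het replicates 3 and 4 nearest to 0. By Xist against Ddx3y, 1 of 6 CD4 libraries numbered 3 or 4 and 3 of 6 numbered 1 or 2 were female, and in Het mice the numbers and the sexes coincide, so there they cannot be told apart. The CD8 library of KO replicate 2 stood apart. It had the lowest position on the first CD8 component (34.9% of the variance) at -40.0, the next being -19.3, with Trib3, a stress response gene, at 106 CPM against 38.4 CPM or less in the 5 other CD8 libraries numbered 1 or 2. Several CD8 results are therefore given with and without it.

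Of 12276 autosomal genes tested in CD4 libraries, 4291 (35.0%) passed the fit's threshold of 0.05, 2202 higher (17.9%) and 2089 lower (17.0%) in numbers 3 and 4. Nothing is read from these shares, since the split was chosen on these libraries. A log2 difference of at least 1 was reached by 383 of the higher genes (3.12% of those tested) and 82 of the lower ones (0.668%). The 6 and 6 libraries did not overlap for 1854 genes (15.1%), 1003 higher (8.17%) and 851 lower (6.93%). In CD8 libraries 2162 of 12179 genes (17.8%) passed, 1083 higher (8.89%) and 1079 lower (8.86%), and 1998 passed without KO replicate 2. A log2 difference of at least 1 was reached by 152 of the higher (1.25% of those tested) and 78 of the lower genes (0.64%), and the sets did not overlap for 1165 genes (9.57%), 607 higher (4.98%) and 558 lower (4.58%). Over the 11781 genes tested in both, 1216 passed in the same direction in both, which is 29.4% of the genes that passed in CD4 and 57.8% of those that passed in CD8 libraries, and 52 passed in opposite directions. Without the CD8 library of KO replicate 2 the shared count was 1156.

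**Figure D2:**
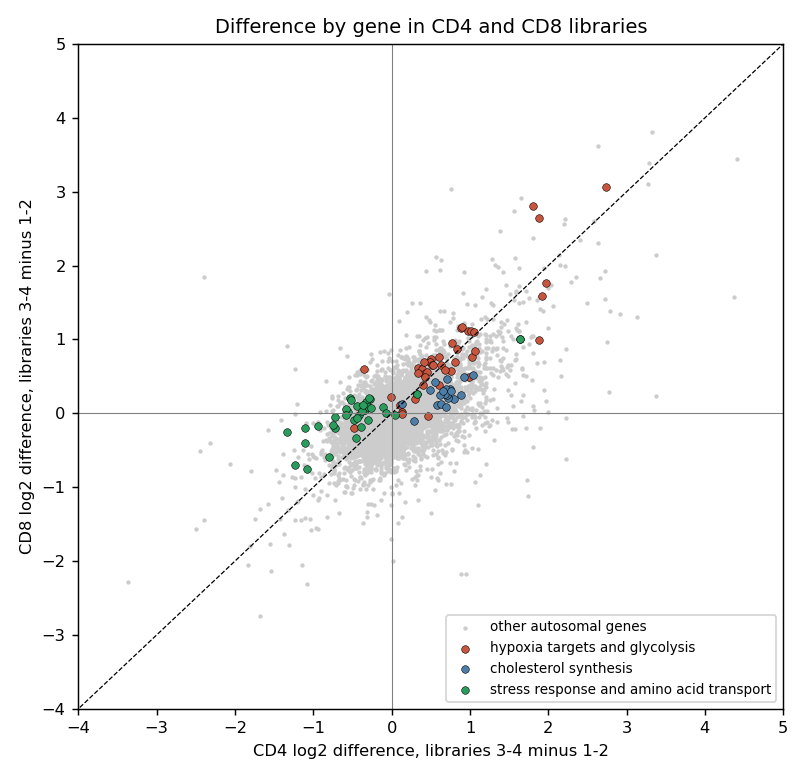
Log2 difference of each autosomal gene in CD4 libraries (horizontal axis) and CD8 libraries (vertical axis), numbers 3 and 4 minus 1 and 2, with 3 groups of lists coloured and the line of equal differences dashed. Hypoxia target and glycolysis genes lie to the upper right, cholesterol synthesis genes lie right of 0 with smaller CD8 differences, and stress response and amino acid transport genes lie mostly left of 0 and near 0 on the CD8 axis.

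Sensors and regulators of the hypoxia response come first. Of the 9 genes on that list tested in CD4 libraries, 5 were past the threshold higher and 1 lower, with a median log2 difference of 0.235, against -0.004 over all genes tested. List counts here and below stand beside the shares of all genes tested. These were 17.9% higher and 17.0% lower in CD4 libraries, and 8.89% higher and 8.86% lower in CD8 libraries. Egln1, the main oxygen-sensing prolyl hydroxylase, had 113, 156 and 172 CPM in CD4 libraries 3 and 4, against 87.2, 97.5 and 101 CPM in CD4 libraries 1 and 2, with no overlap. Hif3a, an inhibitory HIF subunit, averaged 1.39 ± 0.675 CPM in CD4 libraries 3 and 4, against 0.25 ± 0.119 CPM in CD4 libraries 1 and 2 (SD, n = 6 each), so the low set was close to the floor. Hif1an, the asparagine hydroxylase that blocks HIF activity, was the lower gene, at 50.4 ± 2.71 CPM in CD4 libraries 3 and 4, against 61.4 ± 4.28 CPM in CD4 libraries 1 and 2 (SD, n = 6 each). Hif1a itself, named for its place in the pathway after its values were seen, had 869, 897 and 969 CPM in CD4 libraries 3 and 4, against 716, 801 and 861 CPM in CD4 libraries 1 and 2, a log2 difference of 0.18 (SE 0.0465). Its level is of mRNA and says nothing of the protein, which is regulated by breakdown. In CD8 libraries 3 of 7 members rose, among them Egln1 (log2 difference 0.58, adjusted p = 0.00342), and 4 rose without KO replicate 2.

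Hypoxia targets outside glycolysis were mostly higher: 19 of 25 tested in CD4 libraries were past the threshold higher and 1 lower, with a median of 0.752. Fam162a, a mitochondrial protein induced by HIF-1, had 119, 147 and 171 CPM in CD4 libraries 3 and 4, against 62.5, 71.9 and 76.4 CPM in CD4 libraries 1 and 2. P4ha1, a collagen prolyl hydroxylase subunit, had 143, 171 and 187 CPM in CD4 libraries 3 and 4, against 75.5, 82.3 and 102 CPM in CD4 libraries 1 and 2. Bnip3l, the relative of Bnip3 that also acts in mitophagy, had 138, 195 and 210 CPM in CD4 libraries 3 and 4, against 96.8, 99.7 and 106 CPM in CD4 libraries 1 and 2. The sets of all 3 genes were separate. Pdk1, the kinase that holds pyruvate back from the mitochondria, averaged 350 ± 58.9 CPM in CD4 libraries 3 and 4, against 166 ± 16 CPM in CD4 libraries 1 and 2 (SD, n = 6 each), also without overlap. Vegfa, the angiogenic growth factor, overlapped, with 52.7, 78.7 and 84.8 CPM in CD4 libraries 3 and 4, against 38.9, 58.5 and 63.9 CPM in CD4 libraries 1 and 2. Pdk1 and Vegfa were named after their values were seen. In CD8 libraries 15 of 24 rose and none fell, against 8.89% of all genes higher, with a median of 0.658, and 17 of 25 rose without KO replicate 2. For the CD4 difference minus the CD8 difference, where 5.88% of 12828 genes were past the threshold of the edgeR fit, 0 of 26 list members were, 2 had an unadjusted p under 0.05 and DESeq2 called 0.

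Glycolysis genes were higher nearly throughout. Of 20 tested in CD4 libraries, 19 were past the threshold higher and none lower, with a median of 0.568. Slc16a3, the lactate exporter MCT4, had 101, 156 and 191 CPM in CD4 libraries 3 and 4, against 27.8, 42.4 and 48.6 CPM in CD4 libraries 1 and 2, a log2 difference of 1.88 (SE 0.177). Aldoc, an aldolase, had 7.94, 15.5 and 26.3 CPM in CD4 libraries 3 and 4, against 3.48, 4.05 and 4.82 CPM in CD4 libraries 1 and 2. Tpi1, triosephosphate isomerase, had 665, 856 and 973 CPM in CD4 libraries 3 and 4, against 332, 409 and 450 CPM in CD4 libraries 1 and 2. None of these overlapped, and the aldolase and the exporter differed most among the named members. Pfkfb3, which makes the activator of phosphofructokinase, differed by 0.63 (SE 0.0592) on the log2 scale. Slc2a1, the glucose transporter GLUT1, averaged 147 ± 28.9 CPM in CD4 libraries 3 and 4, against 72 ± 9.77 CPM in CD4 libraries 1 and 2, and Ldha, lactate dehydrogenase, 2120 ± 228 CPM against 1470 ± 99.6 CPM in the same order (SD, n = 6 each). Slc2a1 and Ldha were named with their values known.

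In CD8 libraries 18 of 20 glycolysis genes rose and none fell, with a median of 0.656, and the count was 18 without KO replicate 2. Slc16a3 differed by 2.65 on the log2 scale in CD8 libraries (adjusted p = 0.000474), Tpi1 by 1.10 (adjusted p = 0.000969) and Slc2a1 by 1.11 (adjusted p = 0.000744). Aldoc passed with an adjusted p of 0.0306 and missed the threshold without KO replicate 2 (adjusted p = 0.0551) and with sex in the fit. For the CD4 difference minus the CD8 difference 0 of 20 glycolysis genes were past the threshold by edgeR, 3 had an unadjusted p under 0.05 and DESeq2 called 0.

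The genes of largest difference in CD4 libraries went well beyond the hypoxia response. The 12 largest upward differences among genes of at least 5 CPM with no overlap ran from 2.15 (Mx1) to 4.41 (Plcxd1) on the log2 scale, and the 12 largest downward ones from -1.19 (Lad1) to -1.83 (Ramp3). Plcxd1, of the phospholipase C family, had 7.8, 13.8 and 24.2 CPM in CD4 libraries 3 and 4, against 0.203, 0.797 and 0.913 CPM in CD4 libraries 1 and 2. Tgm2, tissue transglutaminase, averaged 15.4 ± 8.07 CPM in CD4 libraries 3 and 4, against 1.39 ± 0.322 CPM in CD4 libraries 1 and 2 (SD, n = 6 each). Nrn1, the GPI-anchored protein neuritin, had 97.4, 221 and 383 CPM in CD4 libraries 3 and 4, against 21.4, 31.8 and 43.7 CPM in CD4 libraries 1 and 2. No set overlapped for these 3. Mboat2, a lysophospholipid acyltransferase, averaged 10 ± 4.5 CPM in CD4 libraries 3 and 4, against 0.931 ± 0.468 CPM in CD4 libraries 1 and 2 (SD, n = 6 each). Vldlr, the very-low-density lipoprotein receptor, differed by 3.15 (SE 0.228), Gpr83, a receptor known in regulatory T cells, by 2.41 (SE 0.26), Arrb1, beta-arrestin 1, by 2.29 (SE 0.187), and Rragd, a Rag GTPase of amino acid sensing by mTORC1, by 2.21 (SE 0.244).

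In CD8 libraries Plcxd1, Mboat2, Gpr83, Nrn1, Arrb1 and Rragd rose as well, with log2 differences of 3.44 (Plcxd1, adjusted p = 0.00151), 3.39 (Mboat2, adjusted p = 0.00143), 2.35 (Gpr83, adjusted p = 0.00031), 1.83 (Nrn1, adjusted p = 1.99e-05), 1.78 (Arrb1, adjusted p = 0.00653) and 1.99 (Rragd, adjusted p = 0.000125). Vldlr and Tgm2 were too low in CD8 libraries to be tested. Mx1, an interferon-induced GTPase, had 41.8, 74.5 and 110 CPM in CD4 libraries 3 and 4, against 5.38, 13.1 and 41.6 CPM in CD4 libraries 1 and 2, and did not pass in CD8 libraries (log2 difference 0.72, adjusted p = 0.269). Its CD4 difference minus its CD8 difference was not past the threshold (1.44, SE 0.581). H2-Ab1, an MHC class II chain of antigen-presenting cells, had 5.06, 12 and 20.3 CPM in CD4 libraries 3 and 4, against 1.02, 1.57 and 2.28 CPM in CD4 libraries 1 and 2. H2-Ab1 had a CD4 difference minus CD8 difference of 2.48 (SE 0.42).

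**Figure D3:**
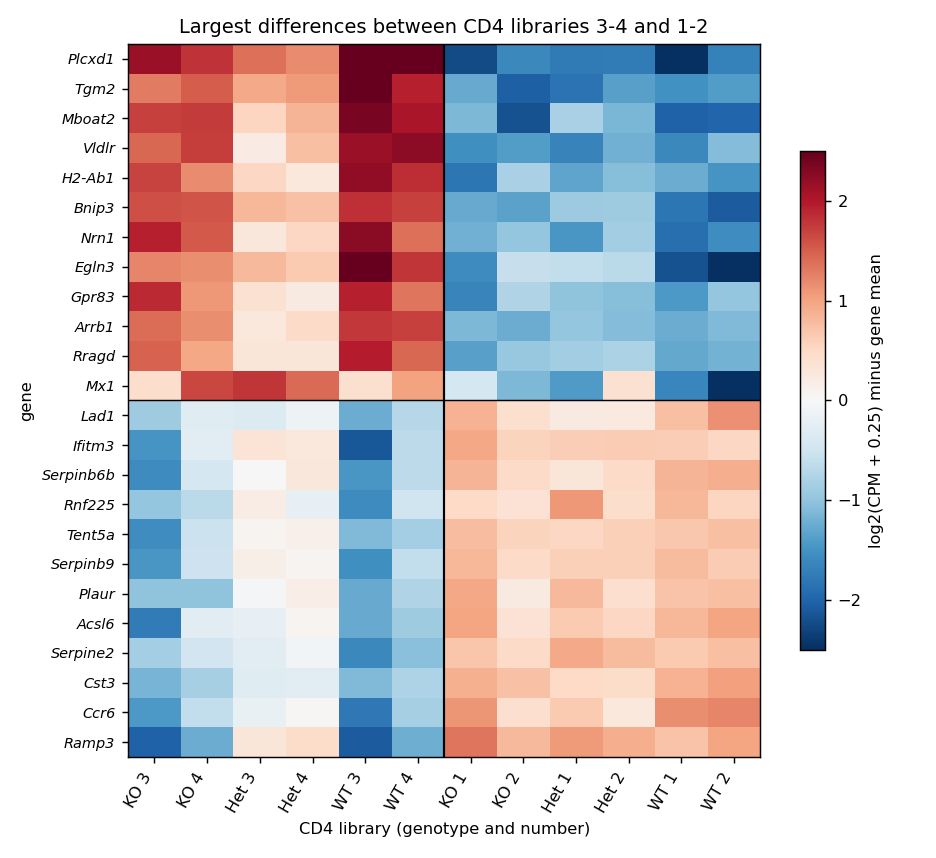
The 12 upward and 12 downward genes of largest difference in CD4 libraries (rows, by log2 difference) across the 12 libraries, numbers 3 and 4 left of the line and 1 and 2 right of it, coloured by log2(CPM + 0.25) minus the gene's mean and saturated at 2.5. Most rows change colour at the line, with Plcxd1 (log2 difference 4.41) the strongest. Ramp3 and Mx1 do not in every library, and Het columns are paler for several genes.

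Among the lower genes, Ramp3, which pairs with the calcitonin and adrenomedullin receptors, had 3.59, 6.64 and 22 CPM in CD4 libraries 3 and 4, against 26.2, 31.1 and 40.5 CPM in CD4 libraries 1 and 2. Ccr6, a chemokine receptor of Th17 cells, had 20.9, 44.3 and 74.6 CPM in CD4 libraries 3 and 4, against 87.6, 136 and 172 CPM in CD4 libraries 1 and 2. Cst3, the secreted protease inhibitor cystatin C, had 34.7, 44.8 and 63.7 CPM in CD4 libraries 3 and 4, against 107, 136 and 159 CPM in CD4 libraries 1 and 2. The sets were separate for each, though those of Ramp3 came close, through the Het libraries of numbers 3 and 4. The group held 3 more protease inhibitors of the serpin family: Serpine2 (-1.42, SE 0.145), Serpinb9, which inhibits granzyme B (-1.27, SE 0.218), and Serpinb6b (-1.24, SE 0.262). Plaur, the urokinase receptor, averaged 3.67 ± 1.66 CPM in CD4 libraries 3 and 4, against 8.84 ± 1.65 CPM in CD4 libraries 1 and 2 (SD, n = 6 each). Acsl6, an acyl-CoA synthetase, Tent5a, Rnf225, Ifitm3, an interferon-induced transmembrane protein, and Lad1 were lower by -1.39, -1.25, -1.24, -1.20 and -1.19 in that order.

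In CD8 libraries 9 of the 12 lower genes also fell, with log2 differences from -2.06 for Ramp3 (adjusted p = 0.00452) to -0.77 for Cst3 (adjusted p = 0.00179). Of all genes tested in CD8 libraries 8.86% fell. Of the 2056 genes past the threshold lower in CD4 libraries and tested in both cell types, 26.9% did. Tent5a (adjusted p = 0.0914), Rnf225 (adjusted p = 0.984) and Ifitm3 (adjusted p = 0.0756) did not pass. The CD4 difference minus the CD8 difference was past the threshold for none of the 12 with all libraries. Without the CD8 library of KO replicate 2 it was past it for Cst3 (-0.84), Tent5a (-0.98) and Rnf225 (-0.98).

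Chosen by the same rule over the CD8 libraries, the largest upward differences after Egln3, Bnip3, Ak4 and Slc16a3 were Spp1, the secreted phosphoprotein osteopontin (2.47, adjusted p = 2.05e-05), and Ccdc141 (2.01, adjusted p = 2.05e-05). Both had CD4 sets that overlapped, with log2 differences of 1.38 (SE 0.533) for Spp1 and 1.32 (SE 0.295) for Ccdc141. The downward ones were Il23a, the p19 chain of interleukin 23 (-1.78, adjusted p = 0.00577), Il3, interleukin 3 (-1.77, adjusted p = 0.00406), Idi2, an isopentenyl diphosphate isomerase (-1.56, adjusted p = 0.000255), Tnfsf4, the ligand of OX40 (-1.55, adjusted p = 3.8e-05), Ccl9, a chemokine (-1.55, adjusted p = 0.000701), and Slc15a3, a lysosomal peptide transporter (-1.44, adjusted p = 0.00123). The CD4 differences pointed the same way where the gene was tested, at -1.31 for Il23a, -1.55 for Il3, -0.94 for Idi2, -0.97 for Tnfsf4 and -1.23 for Slc15a3. Ccl9 was too low in CD4 libraries to be tested.

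Cholesterol synthesis genes were higher as a group in CD4 libraries 3 and 4. Of 20 tested, 18 were past the threshold higher and none lower, all 20 lay above 0, and the median was 0.698. Fdft1, squalene synthase, had 88.4, 96 and 112 CPM in CD4 libraries 3 and 4, against 47.3, 57.1 and 65.2 CPM in CD4 libraries 1 and 2. Lss, lanosterol synthase, had 111, 130 and 163 CPM in CD4 libraries 3 and 4, against 52.6, 61.7 and 86.7 CPM in CD4 libraries 1 and 2. Hmgcs1, whose promoter is printed above and which was named for it after its values were seen, had 401, 511 and 557 CPM in CD4 libraries 3 and 4, against 209, 256 and 333 CPM in CD4 libraries 1 and 2. No set overlapped for these enzymes. Msmo1 and Sc5d, of the last steps towards cholesterol, differed by 0.63 (SE 0.0777) and 0.75 (SE 0.0948).

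In CD8 libraries 0 of 20 passed by edgeR over all 12 libraries, with a median of 0.252. An unadjusted p under 0.05 was reached by 8, DESeq2 called 1, and edgeR called 13 when genes of low count were kept. KO replicate 2 bears on this. Lss stood at 29.9 CPM in that library, against 77.9 to 103 CPM in the 5 other CD8 libraries numbered 1 or 2, and Fdft1 at 33.2 CPM, against 66.8 to 77.3 CPM in them. Without it 3 of 20 rose in CD8 libraries and the median was 0.131. For the CD4 difference minus the CD8 difference 1 of 20 was past the threshold with all libraries, Fdft1 (0.60, SE 0.167), against 3.31% of all genes in that direction. Without KO replicate 2 of CD8, 13 of 20 were past it, all with the larger value in CD4 libraries, with a median of 0.566, among them Lss (0.71), Msmo1 (0.65) and Sc5d (0.56). With all libraries and genes of low count kept, the count was 14. With any other single library left out it ran from 0 to 3. With all libraries DESeq2 called 3, and 10 had an unadjusted p under 0.05 by edgeR. The size of this contrast is therefore not settled by these libraries.

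Of 12 fatty acid synthesis genes, 10 were past the threshold higher in CD4 libraries and none lower, with a median of 0.313. The desaturase Scd1 had 69.8, 92.7 and 172 CPM in CD4 libraries 3 and 4, against 19.8, 24.5 and 35.4 CPM in CD4 libraries 1 and 2. Fads2, the delta-6 desaturase, had 102, 118 and 148 CPM in CD4 libraries 3 and 4, against 31.2, 37.9 and 53.8 CPM in CD4 libraries 1 and 2. Scd2, another stearoyl-CoA desaturase, differed by 0.60 (SE 0.0705), and Acly, which supplies cytosolic acetyl-CoA, by 0.34 (SE 0.0515). The desaturases differed most among the named members and did not overlap between the sets. They also rose in CD8 libraries, with log2 differences of 1.97 for Scd1 (adjusted p = 0.0011), 1.72 for Fads2 (adjusted p = 0.00236) and 0.52 for Scd2 (adjusted p = 0.00984). In all 5 of 12 members rose in CD8 libraries, and 6 without KO replicate 2. For the CD4 difference minus the CD8 difference 0 of 12 were past the threshold by edgeR or DESeq2, and 0 had an unadjusted p under 0.05.

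Genes of the integrated stress response, which the factor ATF4 drives when amino acids run short, were mostly lower. Of 25 tested in CD4 libraries, 20 were past the threshold lower and 3 higher, against 17.0% and 17.9% of all genes, with a median of -0.422. Atf4 itself had 398, 467 and 521 CPM in CD4 libraries 3 and 4, against 516, 716 and 780 CPM in CD4 libraries 1 and 2, with slight overlap. Sesn2, sestrin 2, a leucine-sensing inhibitor of mTORC1, had 27.1, 39.8 and 54.3 CPM in CD4 libraries 3 and 4, against 62.3, 88.6 and 97.7 CPM in CD4 libraries 1 and 2, with none. Trib3, a pseudokinase induced by ATF4, averaged 33.6 ± 9.89 CPM in CD4 libraries 3 and 4, against 72.8 ± 22.2 CPM in CD4 libraries 1 and 2 (SD, n = 6 each), and its sets overlapped. Asns, asparagine synthetase, differed by -0.54 (SE 0.202) and was not past the threshold. Trib3 and Asns were named after their values were seen. Among the 3 higher members were Vldlr and Stc2, a secreted glycoprotein that hypoxia also induces, at 4.43 ± 2.77 CPM in CD4 libraries 3 and 4, against 1.36 ± 0.475 CPM in CD4 libraries 1 and 2 (SD, n = 6 each).

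Amino acid transporters followed, with 9 of 12 past the threshold lower in CD4 libraries, against 17.0% of all genes, none higher and a median of -0.458. Slc3a2, the heavy chain CD98 shared by several transporters, had 142, 197 and 244 CPM in CD4 libraries 3 and 4, against 268, 334 and 364 CPM in CD4 libraries 1 and 2. Slc38a2, the glutamine transporter SNAT2, had 412, 472 and 509 CPM in CD4 libraries 3 and 4, against 574, 661 and 723 CPM in CD4 libraries 1 and 2. The sets did not overlap for either gene. Slc7a1, the cationic amino acid transporter CAT1, differed by -0.44 (SE 0.0763) and Slc38a1, SNAT1, by -0.39 (SE 0.0543).

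Both lists were set beside the CD8 libraries. In CD8 libraries 1 of 24 stress response genes rose and none fell, with a median of 0.040, and 1 of 12 transporters fell. Of all genes 8.89% rose and 8.86% fell there. Without KO replicate 2 of CD8, 4 stress response genes rose, and 1 transporter rose and 1 fell. The CD4 difference minus the CD8 difference was past the threshold and negative for 8 of 25 stress response genes and 4 of 12 transporters, against 2.56% of all genes in that direction, and past it and positive for none. Among them were Atf4 (-0.59, SE 0.146), Slc3a2 (-0.68, SE 0.181), Slc38a2 (-0.39, SE 0.0981) and Slc7a1 (-0.38, SE 0.112). Without the CD8 library of KO replicate 2 the counts were 15 and 5, and Sesn2 was past the threshold (-0.91). Over 30 alternatives the stress response count ran from 1 (without Het replicate 2 of CD8) to 19 and, with 1 library left out, that of the transporters from 1 to 5, so neither size is settled by these libraries, while the stress response median stayed between -0.559 and -0.385.

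**Figure D4:**
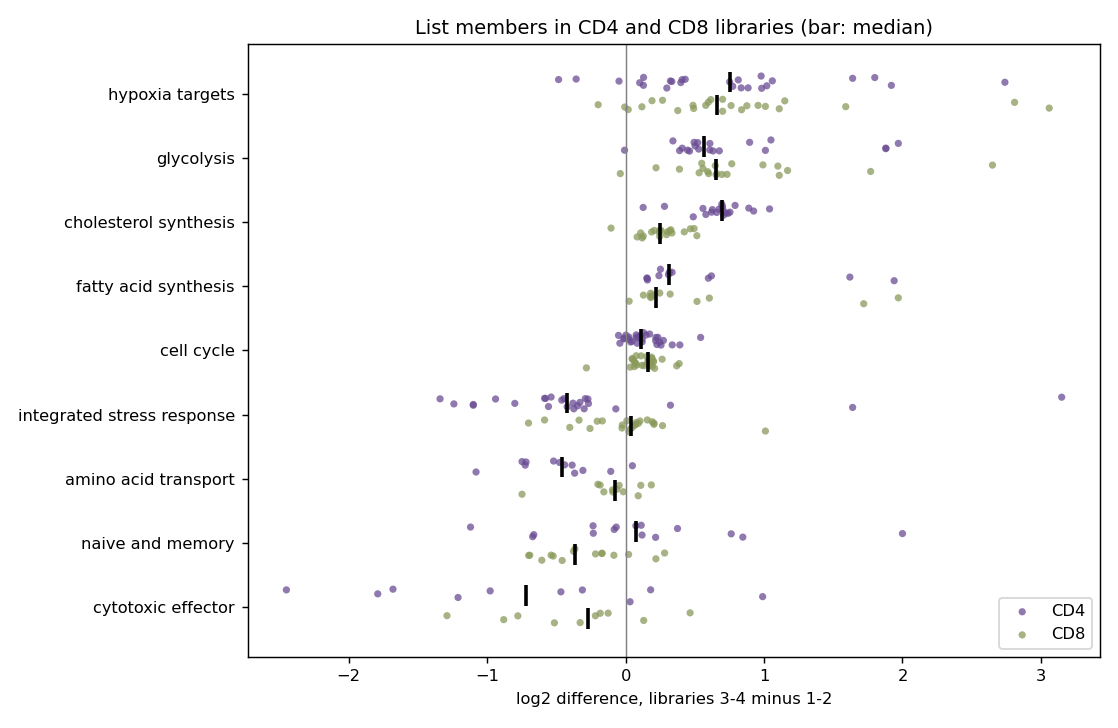
Log2 difference of every tested member of 9 gene lists, numbers 3 and 4 minus 1 and 2, in CD4 and CD8 libraries, with a black bar at the median. Hypoxia target and glycolysis medians lie at 0.752 and 0.568 in CD4 and at 0.658 and 0.656 in CD8 libraries, whereas the stress response median lies at -0.422 in CD4 and 0.040 in CD8 libraries.

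Cell cycle genes were higher by small amounts: 14 of 30 were past the threshold higher in CD4 libraries and none lower, with a median of 0.113. Ccnd2, cyclin D2, had 864, 951 and 1030 CPM in CD4 libraries 3 and 4, against 606, 641 and 722 CPM in CD4 libraries 1 and 2, and Cdk1, the mitotic kinase, differed by 0.27 (SE 0.0445). In CD8 libraries 8 of 30 rose and 1 fell. The 8 became 5 without Het replicate 2, KO replicate 3 or KO replicate 4, 14 without Het replicate 3, 4 with sex in the fit and 3 without heterozygotes. Of 21 genes of ribosome biogenesis and MYC, 6 were past the threshold lower and none higher in CD4 libraries, where 17.0% of all genes were lower, among them Odc1, the rate-limiting enzyme of polyamine synthesis (-0.56, SE 0.0951), and Polr1b, a subunit of RNA polymerase I (-0.28, SE 0.0508). In CD8 libraries 4 of the 21 rose and none fell, but 2 rose and 1 fell without KO replicate 2, and the number that rose ran from 1 to 14 over the libraries left out, so no direction is read from it. Nuclear genes of oxidative phosphorylation stood near the 17.0% of all genes that were lower, with 5 of 26 past the threshold lower (1 without KO replicate 2 of CD4, 7 at most), a median of -0.064 and Atp5b, a subunit of ATP synthase, at -0.17 (SE 0.0367). Tfrc, the transferrin receptor, had 1650, 1800 and 1850 CPM in CD4 libraries 3 and 4, against 1240, 1360 and 1460 CPM in CD4 libraries 1 and 2, with no overlap, and also rose in CD8 libraries (0.54, adjusted p = 0.0124).

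Targets of p53 counted 3 higher and 4 lower of 16 in CD4 libraries, against 17.9% and 17.0% of all genes, from which nothing is read, with Bbc3, the cell death activator PUMA, at -0.59 (SE 0.119). In CD8 libraries 7 of 16 fell, against 8.86% of all genes, and 1 rose, Bbc3 among those that fell (-0.56, adjusted p = 0.00101). Of 19 genes of the unfolded protein response 2 were higher and 4 lower in CD4 libraries, against the same shares of all genes, including Xbp1, its transcription factor (0.40, SE 0.0576), and Herpud1, of degradation at the endoplasmic reticulum (-0.55, SE 0.0992). Interferon response genes counted 6 higher and 2 lower of 29, near the 17.9% of all genes that were higher, and the 6 ran from 3 (without Het replicate 3, KO replicate 4 or WT replicate 4) to 11 (without KO replicate 3). Ifit1 differed by 0.73 (SE 0.189), and 1 of 29 fell in CD8 libraries.

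Genes of T cell identity and function moved in several directions. The shares over all genes were 17.9% higher and 17.0% lower in CD4 libraries, and 8.89% higher and 8.86% lower in CD8 libraries. Cytotoxic effector genes were mostly lower in CD4 libraries 3 and 4, with 6 of 10 past the threshold lower, 1 higher and a median of -0.723. Their levels were low in CD4 cells. Klrd1, the CD94 chain of NK receptors, averaged 1.46 ± 0.926 CPM in CD4 libraries 3 and 4, against 4.38 ± 0.968 CPM in CD4 libraries 1 and 2, and its partner Klrc1, NKG2A, 1 ± 0.582 CPM in CD4 libraries 3 and 4, against 5.42 ± 1.47 CPM in CD4 libraries 1 and 2 (SD, n = 6 each). Klrk1, the activating receptor NKG2D, had 2.84, 5.2 and 15.2 CPM in CD4 libraries 3 and 4, against 7.44, 24.6 and 46.8 CPM in CD4 libraries 1 and 2. Gzmb, granzyme B, was the higher member, with 39.2, 69 and 92.9 CPM in CD4 libraries 3 and 4, against 21.6, 33.9 and 47.7 CPM in CD4 libraries 1 and 2. A marker list of NK cells summed to 0.334 to 1.33 CPM in CD4 libraries 3 and 4 and to 0.938 to 2.51 CPM in CD4 libraries 1 and 2, all 8 of its genes under 1 CPM in every CD4 library, and its part in the receptor values was not tested. In CD8 libraries 5 of 12 cytotoxic genes fell, Klrd1 among them (-1.29, adjusted p = 0.0061), while Gzmb rose (0.47, adjusted p = 0.00102).

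Naive and memory genes were divided in CD4 libraries, 5 of 15 higher and 5 lower, against 17.9% and 17.0% of all genes. Bcl2, the survival factor, had 171, 208 and 306 CPM in CD4 libraries 3 and 4, against 110, 120 and 127 CPM in CD4 libraries 1 and 2, and Klf2, a factor of quiescence and recirculation, had 3.32, 8.09 and 15.5 CPM in CD4 libraries 3 and 4, against 1.6, 1.96 and 2.41 CPM in CD4 libraries 1 and 2. Ccr7, the lymph node homing receptor, had 420, 469 and 577 CPM in CD4 libraries 3 and 4, against 683, 771 and 850 CPM in CD4 libraries 1 and 2, and Satb1, a chromatin organiser, differed by -0.66 (SE 0.094). None of these overlapped, and Bcl2 and Klf2 went the other way from Ccr7 and Satb1. In CD8 libraries 8 of 15 fell and 2 rose, or 6 and 1 without KO replicate 2, and 5 fell without Het replicate 2 or KO replicate 4. Klf2 did not pass (0.02, adjusted p = 0.951). Klf2 had a CD4 difference minus CD8 difference of 1.97 (SE 0.371), and 6 of 15 list members were past the threshold in that direction, or 3 without WT replicate 1 or 2 of CD4 or Het replicate 2 or 4 of CD8. Of all genes 3.31% were past it in that direction.

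Of 13 genes of interleukin 2 and STAT5, 5 were higher and 2 lower in CD4 libraries, and 3 were higher when any 1 of the 4 WT libraries or KO replicate 1 or 3 was left out. Of all genes 17.9% were higher and 17.0% lower, and nothing is read from the 2 lower members. Socs2, a suppressor of cytokine signalling, had 43.8, 71.1 and 129 CPM in CD4 libraries 3 and 4, against 15.4, 18.3 and 25.8 CPM in CD4 libraries 1 and 2, and the receptor chain Il2rb had 266, 305 and 447 CPM in CD4 libraries 3 and 4, against 179, 204 and 236 CPM in CD4 libraries 1 and 2. Neither overlapped. Lif, the cytokine, differed by 0.54 (SE 0.112), and Pim1, a kinase induced by STAT5, by -0.43 (SE 0.094). Socs2 (1.57, adjusted p = 0.0002) and Lif (1.13, adjusted p = 0.000277) rose in CD8 libraries too, where 7 of 13 rose and 1 fell, against 8.89% and 8.86% of all genes. For Pim1 the CD4 difference minus the CD8 difference was past the threshold (-0.60, SE 0.132). Other cytokines counted 7 higher and 3 lower of 15 in CD4 libraries, the lower count being near the share of all genes. Ccl4, a chemokine, had 28.5, 35.3 and 41.4 CPM in CD4 libraries 3 and 4, against 11.7, 19.3 and 24.9 CPM in CD4 libraries 1 and 2, and Ltb, lymphotoxin beta, and Tnf differed by 0.79 (SE 0.118) and 0.56 (SE 0.0697). In CD8 libraries 6 of 15 rose and 4 fell, against 8.89% and 8.86% of all genes.

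Immediate early genes of receptor signalling were 7 higher and 6 lower of 20 in CD4 libraries, against 17.9% and 17.0% of all genes. Egr3 had 144, 196 and 225 CPM in CD4 libraries 3 and 4, against 103, 113 and 121 CPM in CD4 libraries 1 and 2, Egr2 differed by 0.45 (SE 0.08) and Dusp2, a MAP kinase phosphatase, by 0.55 (SE 0.0848). None rose in CD8 libraries, where 3 fell, against 8.89% and 8.86% of all genes. Past the threshold and positive in the CD4 difference minus the CD8 difference were Egr3 (0.56, SE 0.117), Dusp2 (0.81, SE 0.165) and Btg2, an antiproliferative target of p53 (0.93, SE 0.132). For Egr2 (0.48, SE 0.134) it was past the threshold with all libraries and not without the CD8 library of KO replicate 2.

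Lineage genes of helper T cells went both ways. Eomes, a T-box factor, averaged 28.7 ± 6.26 CPM in CD4 libraries 3 and 4, against 15.2 ± 4.35 CPM in CD4 libraries 1 and 2 (SD, n = 6 each). Hopx, a Th1 gene, differed by -0.80 (SE 0.147), the chemokine receptors Ccr4 and Ccr8 by 0.78 (SE 0.11) and -0.58 (SE 0.163), and Nrp1, neuropilin 1 of regulatory T cells, by 0.85 (SE 0.103). In CD8 libraries Nrp1 rose (0.98, adjusted p = 0.000469) and Eomes fell (-0.43, adjusted p = 0.0232), and Eomes missed the threshold there with sex in the fit. The CD4 difference minus the CD8 difference was past the threshold and positive for Eomes (1.34, SE 0.199), Ikzf2, the factor Helios (1.10, SE 0.19), Bcl6, of follicular helper cells (0.97, SE 0.269), and Crtam, an adhesion receptor (1.03, SE 0.13). It was past it and negative for the costimulatory receptor Icos (-0.65, SE 0.14) and for Ctla4, the inhibitory receptor (-1.0, SE 0.134), which was lower in CD4 libraries (-0.41, SE 0.099) and rose in CD8 libraries (0.59, adjusted p = 0.000489). Tigit, an inhibitory receptor, was lower in CD4 libraries (-0.75, SE 0.0909) and fell in CD8 libraries (-0.66, adjusted p = 0.00127), as did Cd80, a ligand of CD28 (-1.0 with SE 0.202 in CD4, -0.58 with adjusted p = 0.00238 in CD8 libraries).

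Over all genes, 754 of 12828 (5.88%) were past the threshold for the CD4 difference minus the CD8 difference, 425 positive and 329 negative. The 4 of largest size each way at a mean of 5 CPM or more over both cell types were Drc1, a ciliary protein (2.79, SE 0.58), Ccl22, a chemokine (2.03, SE 0.538), Klf2 and Nod1, an innate sensor (1.70, SE 0.252), on the positive side. On the negative side they were Igfbp7, a secreted binding protein (-2.30, SE 0.383), Klrc1 (-1.92, SE 0.344), Tal2, a basic helix-loop-helix factor (-1.58, SE 0.288), and Cd200, an inhibitory ligand (-1.49, SE 0.167). Cd200 had 521, 550 and 641 CPM in CD4 libraries 3 and 4, against 385, 395 and 509 CPM in CD4 libraries 1 and 2, and averaged 172 ± 35.5 CPM in CD8 libraries 3 and 4, against 46 ± 8.05 CPM in CD8 libraries 1 and 2 (SD, n = 6 each). It was higher in numbers 3 and 4 of both cell types without overlap, and by more in CD8 cells. Ccl22 had 4.31, 8.81 and 19.2 CPM in CD4 libraries 3 and 4, against 8.78, 9.99 and 13.6 CPM in CD4 libraries 1 and 2, and 0.138, 0.313 and 0.548 CPM in CD8 libraries 3 and 4, against 0.456, 0.975 and 3.2 CPM in CD8 libraries 1 and 2. Its CD4 sets overlapped widely, and its values in CD8 libraries 3 and 4 lay close to the floor. The Ccl22 contrast therefore rests mainly on low CD8 values.

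The CD4 difference was not of 1 size in the 3 genotypes. Its variation between genotypes, tested on 2 degrees of freedom, passed for 111 of 12276 genes (0.904%). Differences were then counted in the direction of the CD4 difference fitted over all genotypes. In all 111 the Het difference so counted was smaller than the WT difference. The KO difference, counted in that direction, was smaller than the WT one in 85 and larger than the Het one in 108. Single contrasts passed for 240 genes (Het minus WT), 14 genes (KO minus Het) and 0 genes (KO minus WT), where 866 had an unadjusted p under 0.05 by the same test. In Het mice the numbers also part the sexes, and that share was not tested. The count of 111 was fragile, running from 4 to 585 when 1 CD4 library was left out, and was 375 with DESeq2.

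Bnip3 differed by 2.93 (SE 0.0953) in KO, 1.69 (SE 0.0918) in Het and 3.74 (SE 0.0997) in WT libraries on the log2 scale (adjusted p of the variation = 0.000107). Egln3 differed by 2.20 (SE 0.294) in KO, 1.39 (SE 0.284) in Het and 4.74 (SE 0.33) in WT libraries (adjusted p = 0.0186). Ak4 differed by 1.89 (SE 0.119) in KO, 1.02 (SE 0.116) in Het and 2.53 (SE 0.123) in WT libraries (adjusted p = 0.008). The order, WT above KO above Het, was the same for all 3. Bnip3 passed in each of 18 alternatives, Ak4 in 16 and Egln3 in 12. Nrn1 (adjusted p = 0.049) and Mboat2 (adjusted p = 0.0344) varied likewise, with Het differences of 1.54 and 1.82 against WT differences of 3.60 and 4.70. Among lower genes the variation passed for Ramp3 (adjusted p = 0.0312), Il3 (adjusted p = 0.044), Sdcbp2, a syntenin relative (adjusted p = 0.044), and Sema4c, a semaphorin (adjusted p = 0.0333), whose Het differences were -0.62, -0.07, -0.14 and -0.10 in that order, against WT differences of -2.45, -2.71, -1.72 and -1.87.

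By list, the median glycolysis difference was 0.627 in KO, 0.311 in Het and 0.837 in WT CD4 libraries, and 11 of 20 members passed for the variation, against 0.904% of all genes. Cholesterol synthesis had medians of 0.788 in KO, 0.303 in Het and 0.965 in WT libraries. The stress response list had -0.639 in KO, -0.006 in Het and -0.557 in WT libraries, and amino acid transport -0.745 in KO, -0.126 in Het and -0.564 in WT libraries. In each of these lists the Het median was nearest to 0. This order did not hold for every list. Interferon response genes had medians of -0.049 in KO, 0.450 in Het and 0.196 in WT libraries. The unfolded protein response (-0.075), ribosome biogenesis (-0.084), oxidative phosphorylation (-0.077) and NRF2 (-0.119) lists also had Het medians farther from 0 than those of KO and WT libraries. B cell markers had medians of 0.400 in KO, -0.570 in Het and 0.973 in WT libraries (7 of 7 tested below 0 in Het and above 0 in WT), and their part in the genotype variation was not tested.

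**Figure D5:**
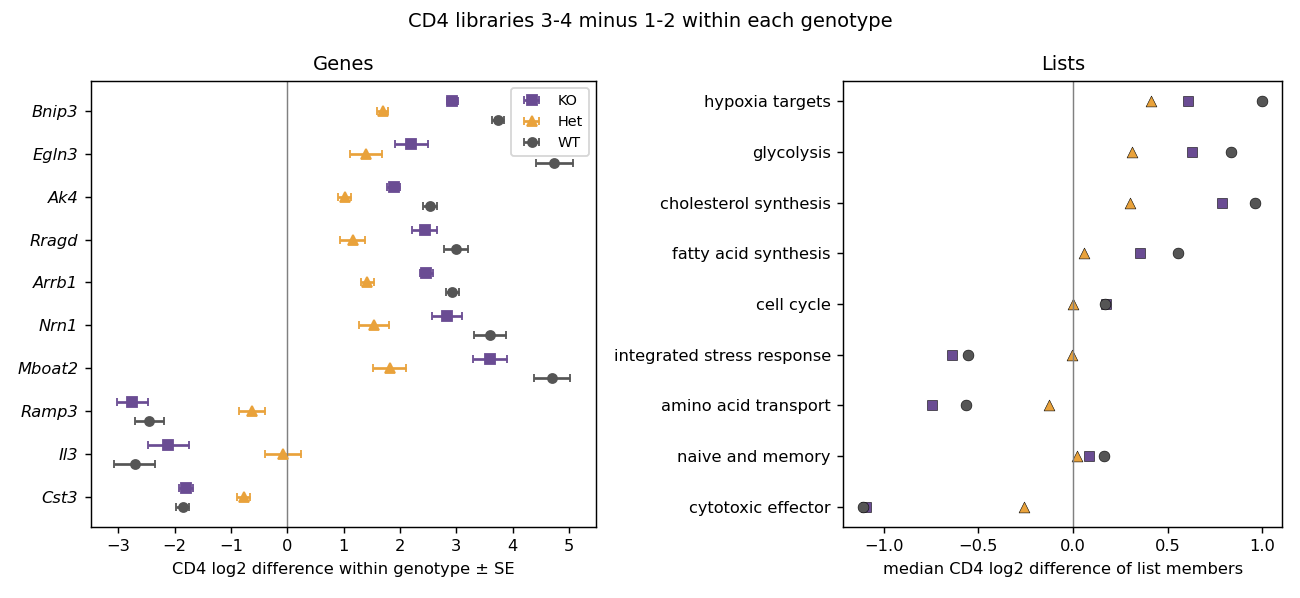
CD4 log2 difference, numbers 3 and 4 minus 1 and 2, within KO, Het and WT libraries, for 10 genes (left, with SE, 2 against 2 libraries per genotype) and as the median of list members for 9 lists (right). For Bnip3 the differences are 2.93, 1.69 and 3.74 in KO, Het and WT, and Het lies nearest to 0 for glycolysis, cholesterol synthesis, stress response and amino acid transport.

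Pou2af1, the gene the study deletes, had 46.7 and 49.5 CPM in WT CD4 libraries 3 and 4, against 29.7 and 28.7 CPM in WT CD4 libraries 1 and 2. Het CD4 libraries 3 and 4 had 24.6 and 22.8 CPM, against 15.7 and 17.6 CPM in Het CD4 libraries 1 and 2. The fitted log2 difference by number was 0.67 (SE 0.101) in CD4 libraries, and in CD8 libraries it did not pass (0.11, adjusted p = 0.692). The CD4 difference minus the CD8 difference was not past the threshold (0.53, SE 0.209).

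Markers of other spleen cells were mostly low, and some moved with the number. Plasma cell markers (6 genes) summed to 139 to 198 CPM in CD4 libraries 3 and 4 and to 131 to 151 CPM in CD4 libraries 1 and 2, nearly all from Ighm, the heavy chain of IgM, while Jchain and Mzb1 stayed under 1 CPM. Stromal and endothelial markers (8 genes) summed to 46.7 to 86.1 CPM in CD4 libraries 3 and 4 and to 59.5 to 78.5 CPM in CD4 libraries 1 and 2, nearly all from Pecam1, an adhesion protein that T cells also carry. Macrophage and monocyte markers (12 genes) summed to 7.39 to 11.6 CPM in CD4 libraries 3 and 4 and to 9.28 to 13.7 CPM in CD4 libraries 1 and 2, with C1qa and C1qc at 0 in every CD4 library. In CD8 libraries these 3 lists summed to 362 to 396, 37.5 to 67.1 and 4.44 to 6.81 CPM in numbers 3 and 4 and to 344 to 417, 56.2 to 72.5 and 5.02 to 8.46 CPM in numbers 1 and 2. Dendritic cell markers (10 genes, H2-Ab1 among them, with Clec9a, Siglech and Cd209a at 0 in all CD4 libraries) summed to 20.5 to 39.7 CPM in CD4 libraries 3 and 4 and to 15.1 to 18.6 CPM in CD4 libraries 1 and 2. In CD8 libraries they summed to 9.39 to 13.8 CPM in numbers 3 and 4 and to 19.5 to 32.1 CPM in numbers 1 and 2, the other way. B cell markers (10 genes) summed to 10.4 to 53.9 CPM in CD4 libraries 3 and 4 and to 12.7 to 26.7 CPM in CD4 libraries 1 and 2, and to 7.74 to 14.9 CPM in CD8 libraries 3 and 4 and 15.5 to 28.3 CPM in CD8 libraries 1 and 2. The medians of these sums were 18.9 and 19.1 CPM in CD4 libraries and 10.5 and 19.8 CPM in CD8 libraries, so the CD4 medians hardly differed. Among CD4 libraries 3 and 4, Cd22 stood at 4.8 CPM in WT replicate 3 and at 0.415 to 2.04 CPM in the others. Ms4a1, the B cell antigen CD20, averaged 4.1 ± 2.58 CPM in CD4 libraries 3 and 4 and 2.77 ± 1.11 CPM in CD4 libraries 1 and 2 (SD, n = 6 each). Ms4a1 (-1.35, adjusted p = 0.00175), Cd22, a B cell inhibitory receptor (-1.12, adjusted p = 0.00463), and Zbtb46, a dendritic cell factor (-1.24, adjusted p = 0.0015), fell in CD8 libraries. The part of these markers in H2-Ab1 and in the cell type contrasts was not tested, and fewer cells of a type and less RNA per cell cannot be told apart in bulk RNA. Neutrophil, red cell and platelet markers stayed under 1.1 CPM in sum in every library.

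Of 8 measures of library quality, the share of reads in ambiguous features was the 1 that did not overlap between CD4 sets, at 1.02% to 1.05% in libraries 3 and 4 and 1.06% to 1.09% in libraries 1 and 2. Mitochondrial genes took 3.01% ± 0.145 in CD4 libraries 3 and 4 and 2.97% ± 0.131 in CD4 libraries 1 and 2 (SD, n = 6 each). In CD8 libraries the ambiguous share was 1.04% ± 0.0238 in numbers 3 and 4 and 1.08% ± 0.008 in numbers 1 and 2 (SD, n = 6 each; exact permutation test, 2-sided, p = 0.0185, adjusted over 8 measures 0.148; the smallest p that this design allows is 0.00926). None of the 8 passed in CD8 libraries after adjustment. The CD4 log2 difference had a median of -0.037 among the shortest genes and 0.014 among the longest when genes were put in 4 equal bins by length, and the 4 bins by GC content lay between -0.013 and 0.007.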

How the data were processed

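Poly(A) RNA of 24 libraries was measured, 12 from CD4 and 12 from CD8 T cells. The raw counts are whole numbers per gene as the authors deposited them, for 55401 genes. Per the submitters' processing notes, Trimmomatic 0.35, STAR 2.7.1a, DESeq2 1.26.0 and the build GRCm38 were used. The sources used here do not give the annotation release or whether counting used strand, and reads of genes that overlap or lie antisense may therefore be mixed. The deposited normalized signal, equal to the deposited counts over a constant for each library, was used in 1 alternative. Summary lines for unassigned reads, 31.6% to 35.0% of entries, entered neither library sizes nor tests. Multimapping reads (17.5% to 18.5%) were not counted for genes, so near-identical copies keep only uniquely placed reads.

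The fits used edgeR 4.0.16 under R 4.3.3 (filterByExpr at its default count of 10, TMM factors, quasi-likelihood F test, 2-sided), with number set and genotype as terms. After scaling, genes of the 19 autosomes were tested, with Benjamini-Hochberg adjustment over all of them and a threshold of 0.05. The number set by cell type interaction came from all 24 libraries with cell type by genotype as groups, and the number set by genotype interaction from the CD4 libraries. The interaction with cell type is given as a description, and it treats CD4 and CD8 libraries of 1 number as independent. CPM were scaled within each cell type. Alternatives used DESeq2 1.42.0 and limma 3.58.1. The procedure was tested on simulated data. The floor of 3 counts covers counting error only. SE come from the quasi-likelihood fit and SD from the 6 libraries of a set, so both include the spread between libraries. No pair of libraries of a group agreed within sampling noise.

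The members, the gene lists and the tests were chosen with earlier results of these data known. Named genes are Bnip3, Egln3 and Ak4, the 12 of largest CD4 difference each way (6 in CD8, 4 in each interaction) past the threshold at 5 CPM or more, without overlap for the first 2, and up to 4 members of lowest p of each list. Genes with Gm or Rik names and receptor segments were left out, and some genes of the rule are not reported here. Samples were grouped by the labels.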

Additional observations from a re-analysis of the deposited data

Results flagged for a closer look

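Over the 119 named genes, 468 sets of 6 libraries (a gene in 1 cell type and 1 pair of numbers) were examined for a library whose gap to its nearest neighbour was too large a share of the set's range by Dixon's critical value. Such a library was found in 44 sets. Chance alone gives about 1 set in 20, or 23.4 of 468, so single entries carry little weight, and the sets are not independent, since genes share libraries. The range in parentheses is that of the 5 other libraries of the set. In CD4 libraries 3 and 4, WT replicate 3 lay above the rest for Spp1 at 11.2 CPM (1.58 to 3.21 CPM), Scd1 at 172 CPM (69.8 to 104 CPM), Stc2 at 9.75 CPM (1.98 to 4.68 CPM) and Cd22 at 4.8 CPM (0.415 to 2.04 CPM). In CD4 libraries 1 and 2, KO replicate 1 lay above the rest for Ifitm3 at 185 CPM (135 to 147 CPM). KO replicate 2 lay above the rest for Cd200 at 509 CPM (385 to 410 CPM) and Icos at 287 CPM (239 to 256 CPM). Het replicate 2 lay above the rest for Ccnd2 at 722 CPM (606 to 648 CPM) and Eomes at 23.5 CPM (11.6 to 15.4 CPM). Het replicate 1 lay below the rest for Vegfa at 38.9 CPM (55.4 to 63.9 CPM). In CD8 libraries 3 and 4, Het replicate 4 lay above the rest for Ccr6 at 11.5 CPM (4.07 to 6.63 CPM) and Tal2 at 3.29 CPM (1.24 to 1.77 CPM) and below the rest for Slc7a1 at 334 CPM (397 to 406 CPM). KO replicate 3 lay below the rest for Ccdc141 at 11.7 CPM (13 to 13.7 CPM). WT replicate 3 lay above the rest for Idi2 at 8.67 CPM (5.52 to 6.56 CPM). Het replicate 3 lay above the rest for Klrc1 at 55.3 CPM (28.5 to 35.2 CPM). In CD8 libraries 1 and 2, Het replicate 1 lay above the rest for Sema4c at 28.3 CPM (19.7 to 22.4 CPM).

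The CD8 library of KO replicate 2 accounted for 27 of the 44 sets. It held the highest value for Ramp3 at 14.2 CPM (3.41 to 6.1 CPM), Serpinb9 at 708 CPM (482 to 549 CPM), Tent5a at 119 CPM (37.9 to 61.7 CPM) and Il23a at 158 CPM (24.4 to 38.8 CPM). High there too were Il3 at 23.3 CPM (5.94 to 10.1 CPM), Sdcbp2 at 6.91 CPM (3.27 to 3.87 CPM), Hif1an at 67.1 CPM (45.7 to 53 CPM) and Dusp2 at 120 CPM (68.6 to 79.2 CPM). The same held for Ccr7 at 744 CPM (434 to 535 CPM), Satb1 at 371 CPM (256 to 291 CPM), Ikzf2 at 100 CPM (64.3 to 76.4 CPM) and Bcl6 at 16 CPM (6.5 to 9.53 CPM). Also high were Klrd1 at 252 CPM (123 to 166 CPM), Pim1 at 270 CPM (174 to 202 CPM), Tnf at 48.3 CPM (34.9 to 38.7 CPM), Cd22 at 3.63 CPM (1.42 to 2.14 CPM) and Trib3 at 106 CPM (10.4 to 38.4 CPM). It held the lowest value for Fam162a at 50.6 CPM (66.6 to 73.7 CPM), Tpi1 at 179 CPM (328 to 408 CPM), Fdft1 at 33.2 CPM (66.8 to 77.3 CPM) and Msmo1 at 59.8 CPM (124 to 152 CPM). Low there too were Lss at 29.9 CPM (77.9 to 103 CPM), Sc5d at 74.5 CPM (124 to 153 CPM), Acly at 283 CPM (381 to 408 CPM) and Tfrc at 694 CPM (1200 to 1440 CPM). Further low values were Ccr4 at 11.9 CPM (22.4 to 28.3 CPM) and Pdk1 at 117 CPM (173 to 191 CPM).

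For 31 of the 119 genes the CD4 difference minus the CD8 difference was past the threshold in the edgeR fit over all 24 libraries, a description, since the CD4 values that prompted the split enter it. Zbtb46, Polr1b and Egr2 were no longer past it without the CD8 library of KO replicate 2. The CD4 log2 difference minus the CD8 log2 difference was 2.86 for Cd22, 2.79 for Drc1, 2.48 for H2-Ab1, 2.03 for Ccl22, 1.97 for Klf2, 1.84 for Ms4a1, 1.70 for Nod1, 1.34 for Eomes and 1.10 for Ikzf2. It was 1.03 for Crtam, 1.00 for Zbtb46, 0.97 for Bcl6, 0.93 for Btg2, 0.81 for Dusp2, 0.60 for Fdft1, 0.56 for Egr3, 0.56 for Bcl2 and 0.48 for Egr2. On the negative side it was -2.30 for Igfbp7, -1.92 for Klrc1, -1.58 for Tal2, -1.49 for Cd200, -1.0 for Ctla4, -0.68 for Slc3a2, -0.65 for Icos, -0.60 for Pim1 and -0.59 for Atf4. It was -0.39 for Slc38a2, -0.38 for Slc7a1, -0.36 for Polr1b and -0.26 for Atp5b.

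For 30 genes the CD4 difference varied between KO, Het and WT libraries on 2 degrees of freedom. The adjusted p of edgeR's quasi-likelihood test was 0.000107 for Bnip3, 0.00405 for Slc2a1, 0.0051 for Arrb1, 0.008 for Ak4, 0.0109 for Slc16a3, 0.0109 for Pdk1, 0.0186 for Egln3, 0.0219 for Egln1, 0.0228 for Cst3, 0.0258 for Hmgcs1 and 0.027 for Tpi1. It was 0.029 for P4ha1, 0.0312 for Ramp3, 0.0312 for Lss, 0.0312 for Fads2, 0.0312 for Scd2, 0.0312 for Herpud1, 0.0312 for Lif, 0.0333 for Sema4c, 0.0341 for Egr3 and 0.0344 for Mboat2. The highest were 0.0344 for Cd80, 0.0363 for Rragd, 0.0363 for Il2rb, 0.0363 for Ldha, 0.0423 for Socs2, 0.044 for Il3, 0.044 for Sdcbp2, 0.049 for Nrn1 and 0.049 for Bnip3l. The number of genes past that test depends on single libraries, with the range given below. Numbers and sexes coincide in Het mice, so there the 2 cannot be told apart.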

How the results depend on the processing

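Of the values of named genes under the alternatives, 11387 stayed on their side of the threshold, 704 no longer passed it and 343 newly passed it. Another 2, past it with all libraries or under the alternative, changed sign. Sign changes of values past it in neither fit were not counted. The count of 4291 genes in CD4 libraries became 3487 to 4292 with 1 library left out and 2304 to 3122 with 1 number left out. Within 1 genotype the count was 904 (KO), 919 (Het) and 2800 (WT), where fewer libraries enter. In CD8 libraries the 2162 became 1356 (without KO replicate 3) to 2740 (without Het replicate 3) with 1 library left out, 411 to 1054 with 1 number left out, 1276 with sex in the fit, 964 without heterozygotes and 393 (KO), 10 (Het) and 57 (WT) within 1 genotype. The 754 genes past the threshold between cell types became 388 (without CD8 Het replicate 2) to 1289 (without CD8 Het replicate 3), and 1246 with genes of low count kept. The 111 that varied between genotypes became 4 (without CD4 Het replicate 4) to 585 (without CD4 KO replicate 4), 1081 with genes of low count kept and 375 with DESeq2. Except where fewer libraries enter, the cause of these moves was not tested.

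With the replicate number as a block (limma voom) the counts were 4867 in CD4 libraries, 4353 in CD8 libraries and 162 between genotypes. Between cell types the count was 791 in an edgeR fit with a term for each combination of genotype and number. That fit pairs the CD4 and CD8 libraries of a combination. Limma voom without a block, chosen after seeing the data, gave 4327 in CD4 libraries, 2219 in CD8 libraries and 108 between genotypes. The correlation within a number that the block estimated was -0.0703 in CD4 and -0.19 in CD8 libraries. Both are negative, and the larger counts with the block are not read as a stronger result. Deviations from group means correlated at 0.02 to 0.481 between CD4 and CD8 libraries of 1 genotype and number, above 0.1 in 11 of 12 pairs. With the means of the number sets removed they correlated at -0.0363 to 0.242, above 0.1 in 6 of 12. Both libraries of a genotype and number set then mirror each other and share a value, so these 12 are not separate pairs. Pairing required every pair above 0.1 or a tie in the labels, so the main fits treat the libraries as separate.

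In Het libraries alone the CD4 difference changed sign for Il23a (0.12) and Ccl22 (-0.82). The difference in the share of the 100 largest genes in CD8 libraries ran from -0.0396 to 0.213 percentage points with 1 library left out, against 0.0865 with all. The unmapped share (0.104 to 0.211) and the ambiguous share (-0.0501 to -0.0357) reached an adjusted p of 0.037 by exact permutation test without Het replicate 4 of CD8. With sex in the fit, Sdcbp2, Aldoc, Stc2, Slc38a1, Cdk1, Bcl2, Eomes, Il2rb and Klrk1 missed the threshold in CD8 libraries. Depth limits genes near the floor of 3 counts, such as Hif3a.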
